A study of Caenorhabditis elegans with 4 samples.

Results

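The RNA polymerase III subunit RPC-1 was mapped in Caenorhabditis elegans, and the regions described here are its peaks on 4 chromosome arms: those of chromosomes II, III, IV and V that do not hold the meiotic pairing centre. Each chromosome was divided into 3 stretches of equal length, an arm on either side of a middle region. Members were chosen by position alone, as the series-wide peaks whose centre lay above 10186230 on II, below 4594567 on III, below 5831264 on IV or above 13949433 on V (WormBase WS220 coordinates). This gave 375 of the 1648 nuclear peaks (22.8%), with 65 on the arm of II, 88 on III, 79 on IV and 143 on V. The arms span 5.09, 4.59, 5.83 and 6.97 Mb, or 22.5 Mb together. The middle region of each chromosome and the opposite arm, which holds the pairing centre, are equally long by construction, so peak counts can be compared directly. The middle regions held 272 peaks and the pairing-centre arms 309.

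RNA polymerase III (Pol III) makes short structured RNAs, among them tRNAs and 5S rRNA, and RPC-1, its largest subunit, carries part of the catalytic centre. At tRNA genes the polymerase is recruited through TFIIIC, which binds promoter boxes inside the gene, and TFIIIB. In C. elegans the autosome arms are richer in repeats and in heterochromatin and recombine more than the centres, and each chromosome has a pairing centre near one end that zinc finger proteins bind in meiosis.

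Wild-type animals of strain N2 were grown at 20 °C to the L3 larval stage as mixed males and hermaphrodites; all 4 libraries share this background and no treatment was applied. There were 2 RPC-1 ChIP libraries, made with an affinity-purified rabbit polyclonal antibody, and 2 input libraries, and nothing in the labels says that replicates came from separate cultures. Peak lists were analysed for ChIP replicate 1 (1671 nuclear peaks), ChIP replicate 2 (1451) and the series as a whole (1648). Read depths are unknown, scores are the authors' own with no stated scale, and the series-wide list is not independent of the replicates, because the series has no other ChIP libraries.

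Arm peaks were denser than those of the middle regions. The 375 arm peaks amounted to 16.7 per Mb, against 12.1 per Mb for the 272 peaks of the middle regions, a ratio of 1.38 (95% interval 1.18 to 1.62, exact binomial test, adjusted p = 0.00047 over 8 comparisons with the middle regions). Each ChIP library gave more peaks in the arms as well, with 389 against 279 in replicate 1 (ratio 1.39, 1.19 to 1.63) and 352 against 235 in replicate 2 (ratio 1.50, 1.27 to 1.77). Because peaks near each other are not independent, peaks with at most 2 kb between their edges were also merged, which left 278 units in the arms and 216 in the middle regions (ratio 1.29, exact binomial p = 0.006). The 87 peaks of these regions that were not found in both libraries numbered 40 in the arms and 47 in the middle regions, a set taken after the data had been seen (ratio 0.851, exact binomial p = 0.52).

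Taken one by one, only the arm of V passed the test in the series-wide list, and whether the ratio differs between chromosomes was not tested. The arm of V held 143 peaks against 83 in its middle region (ratio 1.72, 1.31 to 2.29, exact binomial test, adjusted p = 0.000318 over 4 chromosomes), or 20.5 against 11.9 per Mb. The arms of III (88 against 67 peaks, ratio 1.31) and IV (79 against 60, ratio 1.32) did not pass the test on their own, each with an adjusted p of 0.169. The arm of II held 65 peaks against 62 (ratio 1.05, 0.729 to 1.51, exact binomial test, adjusted p = 0.859). In replicate 2 the arm of IV passed too, with 84 against 54 peaks (exact binomial test, adjusted p = 0.0265), and in both replicates V had the lowest p. Arm counts were above those of the middle region on all 4 chromosomes in all 3 lists, which is as extreme as 4 chromosomes allow: 2 of 16 sign patterns in an exact two-sided sign-flip permutation, so that this test cannot pass 0.05. Without chromosome V the ratio over the other 3 arms was 1.23 (exact binomial p = 0.0405).

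**Figure D1:**
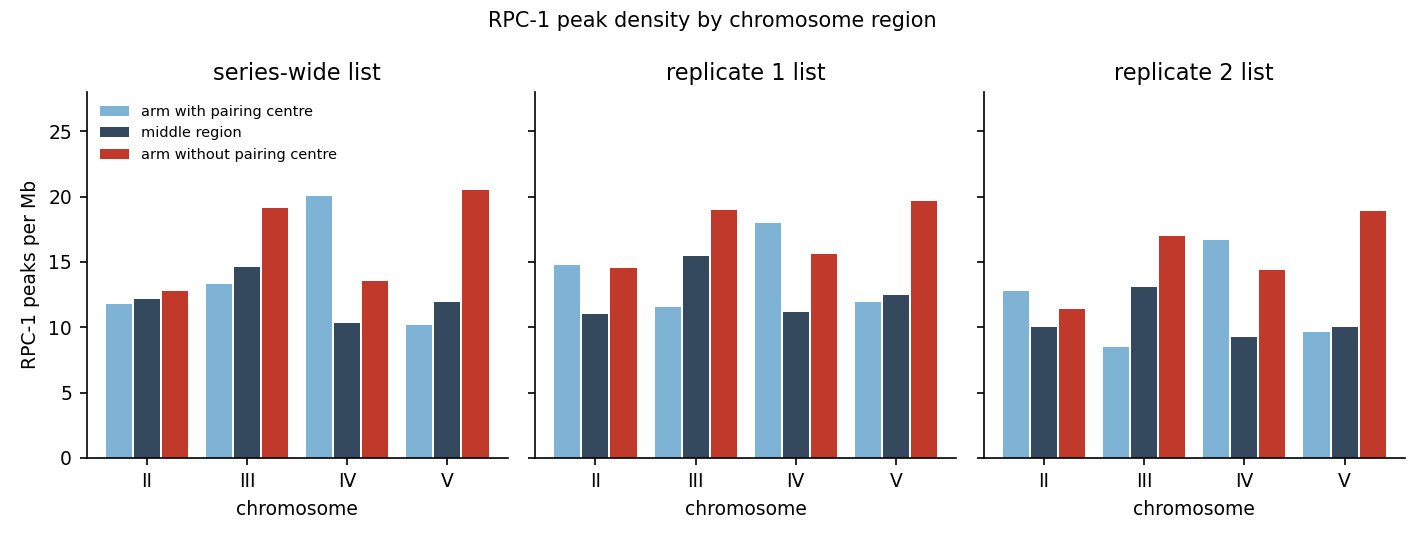
Bars give RPC-1 peaks per Mb on chromosomes II, III, IV and V for the arm with the pairing centre, the middle region and the arm without the pairing centre, in the series-wide list and in each ChIP library's own list. The arm of V is the tallest bar of its chromosome in each list (20.5, 19.6 and 18.9 peaks per Mb), and on IV the pairing-centre arm is taller (20.1, 18.0 and 16.6 peaks per Mb).

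Peaks were found along the whole of each arm. Each arm was cut into 10 equal segments, from the border with the middle region (segment 1) to the chromosome end (segment 10). Summed over the 4 arms, segments held between 26 peaks (segment 7) and 53 peaks (segments 5 and 8) in the series-wide list. In segment 5, 27 of the 53 peaks lay on V, and only 16 of those 27 were found in both libraries; the replicates had 35 and 33 peaks in segment 5. In segment 8 the replicates had 60 and 58 peaks, the most of any segment in each list. On IV, segment 6 alone held 19 of the 79 arm peaks, all of them found in both libraries, with a median score of 114.72.

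The arms also had long stretches without peaks, as did the other regions. Of the distances between neighbouring peak centres, 20.9% exceeded 100 kb in the arms, 29.0% in the middle regions and 23.8% in the pairing-centre arms. The longest such distance was 760 kb in the arms and 834 kb in the middle regions. Of consecutive 100 kb bins, 15 of 70 were empty on V, 13 of 46 on III, 20 of 51 on II and 26 of 59 on IV. The longest gaps between neighbouring members ran from 12846014 to 13605325 on II (759 kb), from 1659340 to 2246170 on IV (587 kb) and from 3682040 to 4126747 on IV (445 kb). The gap on II held 3 peaks of replicate 1 and 0 of replicate 2, that at 1659340 on IV held 4 and 1, and that at 3682040 on IV held 0 and 2.

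**Figure D2:**
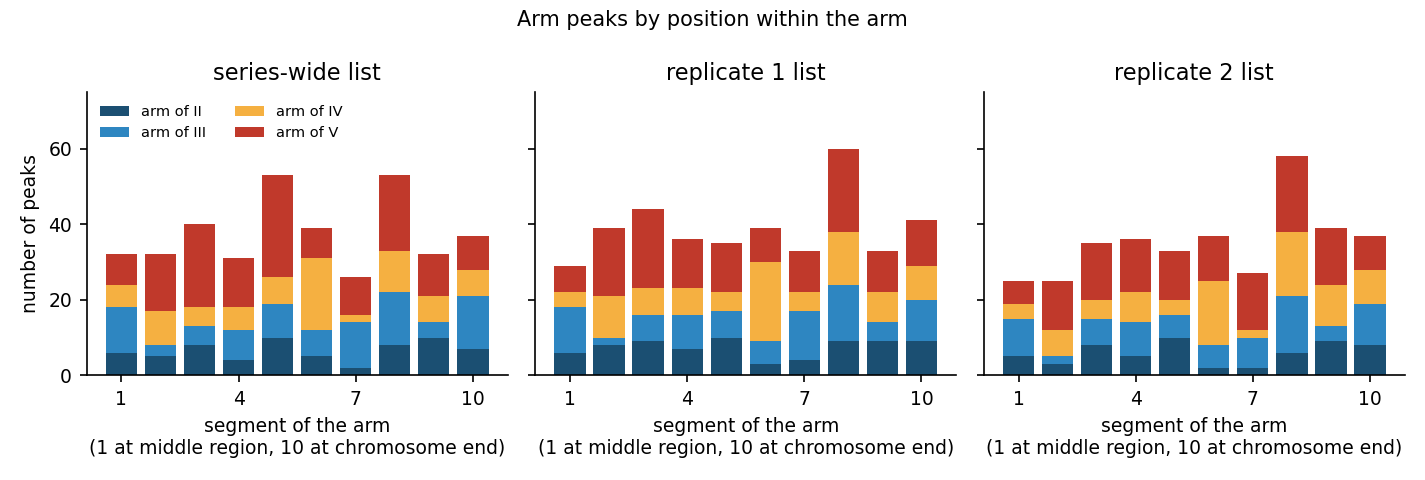
Stacked bars give the number of arm peaks in each of the 10 segments of an arm, from the border with the middle region to the chromosome end, coloured by chromosome, in the 3 lists. Segment 8 stands out in all 3 lists (53, 60 and 58 peaks), whereas the 53 peaks of segment 5 in the series-wide list meet 35 and 33 in the replicates.

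At the borders set by the rule, scores were mixed on both sides. The 4 arm peaks closest to the border had scores from 5.72 to 114.28 on II, 27.17 to 131.85 on III, 2.95 to 56.1 on IV and 6.91 to 132.92 on V. The 4 peaks closest on the other side had scores from 3.98 to 80.04 on II, 2.73 to 173.72 on III, 8.05 to 173.72 on IV and 3.98 to 127.27 on V. The nearest member lay 54894 bp from its border, on II, so no member sat at the cut-off itself.

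Whether arm peaks scored lower than those of the middle regions depended on the list. Scores of the arm peaks ran from 1.58 to 173.72, with a median of 64.6 (quartiles 14.0 and 115.7), against a median of 75.5 in the middle regions. Of the 375 members, 184 (49.1%, 43.9 to 54.2) were at or above the median score of all nuclear peaks, where 50.0% of all peaks lie by definition, and 145 of 272 (53.3%, 47.2 to 59.4) were in the middle regions (Fisher's exact test, odds ratio 0.844, 0.61 to 1.17, adjusted p = 0.321). For the peaks that both libraries held, likewise taken after the data had been seen, the shares were 54.9% and 64.4% (Fisher's exact test, p = 0.0286). All 184 and 145 peaks at or above the median were found in both libraries, so this choice removed only lower-scoring peaks. The test therefore repeats the difference in support and cannot decide whether scores differ. In replicate 1 the shares over all its peaks in these regions were 48.6% and 54.5% (Fisher's exact test, p = 0.137). In replicate 2 they were 42.3% and 59.1% (Fisher's exact test, p = 7.36e-05). Whether the libraries differ in this was not tested.

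By chromosome, the arm median was the lower on all 4 chromosomes in replicate 2 and on 3 of 4 in the other lists. In replicate 2 the arm median was 2088 on II, 2231 on III, 1134 on IV and 1233 on V. The middle regions had 3100 on II and III, the value at which scores of this library pile up, 2502 on IV and 2367 on V. All 4 arms were thus lower (2 of 16 sign patterns in the same exact permutation, the fewest possible). In replicate 1 the arms were lower on II (635 against 2050), III (1058 against 1608) and IV (594 against 1037), and higher on V (906 against 761). In the series-wide list the arm median was lower on III, IV and V and higher on II (80.85 against 77.5). Low scores were not particular to these arms. In replicate 2, 44.0% of peaks in the pairing-centre arms were at or above the list median, against 42.3% here. The shares were 42.1% and 48.6% in replicate 1, and 42.1% and 49.1% in the series-wide list (Fisher's exact test for the latter, adjusted p = 0.152 over 8 comparisons with the pairing-centre arms).

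**Figure D3:**
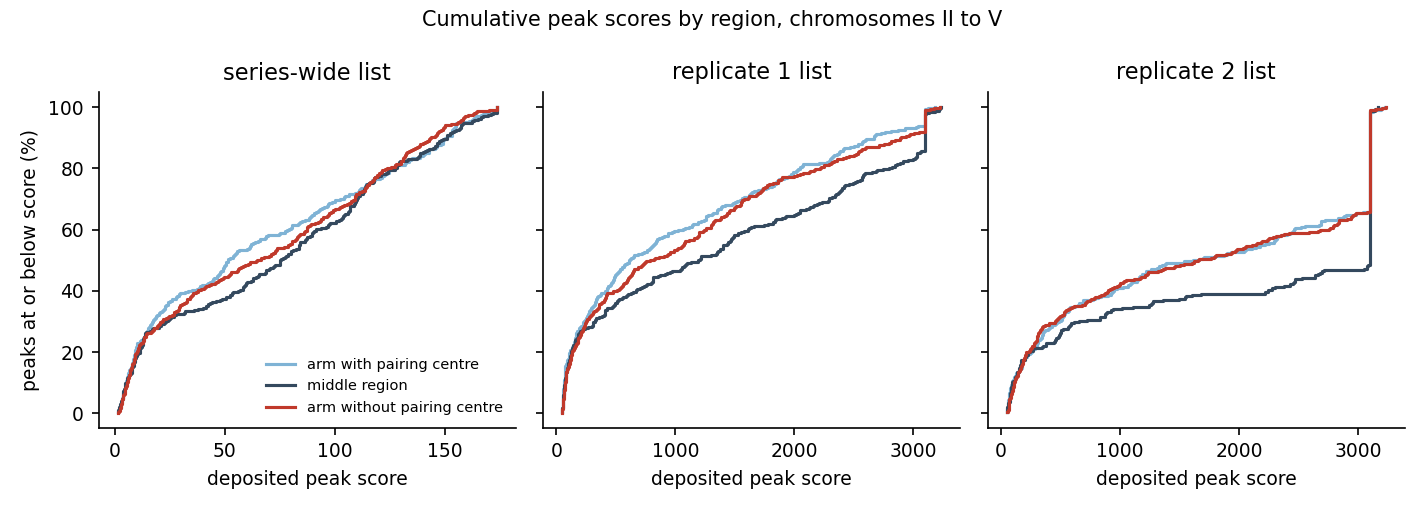
Curves give the percentage of peaks at or below each deposited score for the 3 regions of chromosomes II to V together, one panel per list (score scales differ between lists). In replicate 2 the lower quartile was 309 in the arms and 484 in the middle regions, and the curves end in a pile-up at 3100, which 120 of 352 arm peaks and 119 of 235 peaks of the middle regions reach or exceed.

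The strongest arm peaks were all present in both libraries, as was every nuclear peak of the upper 2 of 4 score classes, in the arms and elsewhere. The highest series-wide score, 173.72, was shared by 23 nuclear peaks, 3 of them members, all on the arm of II. These lay at 11960552 to 11961109, 13834219 to 13835032 and 14804151 to 14804906, and each had a score of 3100 in both libraries. The same places were 790, 943 and 916 bp wide in replicate 1 and 1519, 1789 and 1598 bp wide in replicate 2.

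On IV the leading members lay at 5038664 to 5039155 (score 170.1), 2639612 to 2640130 (164.49) and 2739987 to 2740370 (161.67). Their scores in replicate 1 were 3125.57, 3142.67 and 2177.04, and in replicate 2 each had 3100. On III the leaders lay at 3248997 to 3249374 (169.17), 1604383 to 1604943 (163.0) and 1424260 to 1424647 (160.81). Of these, the peak at 1604383 had 3100 in replicate 1, where the others had 2318.1 and 2498.22, and all had 3100 in replicate 2. The arm of V, the one with the most peaks, had the lowest leading scores, at 20693866 to 20694341 (163.55), 15464880 to 15465474 (158.3) and 18887936 to 18888304 (157.89), each with 3100 in both libraries. Of these 12 peaks, 8 stood alone, with no other peak within 2 kb, as did 222 of all 375 members (59.2%).

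Arm peaks of the series-wide list were narrower than those of the middle regions. Their median width in the series-wide list was 322 bp (quartiles 266 and 405), against 341 bp (quartiles 268.75 and 450.25), and the arm median was the lower on all 4 chromosomes. Of the members, 157 (41.9%, 36.8 to 47.0) were at or above the median width of all nuclear peaks, which 50.1% of all peaks reach, against 145 (53.3%, 47.2 to 59.4) in the middle regions (Fisher's exact test, odds ratio 0.631, 0.455 to 0.875, adjusted p = 0.0165). In replicate 2 the shares were 45.2% and 56.2% (Fisher's exact test, p = 0.0114), and in replicate 1 they were 49.1% and 56.6%, which did not pass (p = 0.0596). The arm median was the lower on all 4 chromosomes in replicate 2 and on II, III and IV in replicate 1. On V in replicate 1 it was the higher, at 480 bp against 454 bp. Without chromosome III the series-wide difference did not pass either (Fisher's exact test, p = 0.0535). Width and score are related across the arm peaks of a list, with Spearman's rho of 0.54 in the series-wide list, 0.672 in replicate 1 and 0.6 in replicate 2, and the part of score in the difference in width was not tested.

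The widest members were low scoring and all lay on III. The widest spanned 2077456 to 2082631 (5176 bp) with a score of 29.17. The overlapping peaks of the libraries covered only its start, with 218 bp in replicate 1 (score 108.96) and 979 bp in replicate 2 (83.65). The next, at 1017354 to 1020635 (3282 bp, score 10.52), was matched by a peak of 4057 bp with a score of 3100 in replicate 2 and by none in replicate 1. The peak at 3334311 to 3336856 (2546 bp, score 14.76) was found over nearly its whole length in both libraries, with scores of 96.97 and 568.75. The peak at 449979 to 452094 (2116 bp, score 6.89) was found in replicate 2 only (179.31). The peak at 2500127 to 2501755 (1629 bp, score 9.09) lay inside 1 peak of 5071 bp in replicate 1 (score 246.36) and 1 of 5681 bp in replicate 2 (1376.86). The 7 members over 1000 bp had a median score of 10.52. Low scores of wide peaks were not particular to these arms. The median was 13.365 for 4 such peaks of the middle regions, the widest of 8124 bp, and 24.45 for 7 of the pairing-centre arms.

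Most arm peaks were found in both libraries. Of the 375 members, 335 (89.3%, 85.8 to 92.3) overlapped a peak of each replicate by at least 1 bp, 9 met a peak of replicate 1 alone, 21 met one of replicate 2 alone and 10 met none. Over all nuclear series-wide peaks 84.8% were found in both. In the middle regions 225 of 272 were (82.7%, 77.7 to 87.0), a difference that passed Fisher's exact test on its own (odds ratio 1.75, 1.08 to 2.83, p = 0.0192) and not after adjustment over the 8 comparisons (adjusted p = 0.0512). Chromosome II carried much of it, with 64 of 65 arm peaks against 48 of 62 in its middle region. Without II the shares were 87.4% and 84.3% (Fisher's exact test, p = 0.365). Requiring centres no more than 200 bp apart, in place of any overlap, gave shares of 61.9% and 60.7% (Fisher's exact test, p = 0.806).

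A difference in support could appear only among the weak peaks, because every nuclear peak of the upper 2 score classes was found in both libraries. When all nuclear peaks were sorted by score into 4 classes of 412, each of the 184 arm peaks and the 145 peaks of the middle regions in the upper 2 classes was found in both libraries. In the lowest class, 62 of 97 arm peaks were (63.9%, 53.5 to 73.4), against 31 of 72 in the middle regions (43.1%, 31.4 to 55.3) and 205 of all 412 (49.8%, 44.8 to 54.7). Over the lower 2 classes together the shares were 79.1% and 63.0% (Fisher's exact test, p = 0.00203). Several weak members lay inside the same replicate peak, so these shares count some places more than once. For example, the 4 members on II at 12843866 to 12846013 met 1 peak of each library. Over all scores, 356 members met 289 distinct peaks of replicate 2, and 246 peaks of the middle regions met 206. The comparison was not repeated on merged peaks. Members found in both libraries had a median score of 80.03. The median was 9.05 for those found in replicate 1 only, 6.89 for those found in replicate 2 only and 4.45 for those found in neither.

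**Figure D4:**
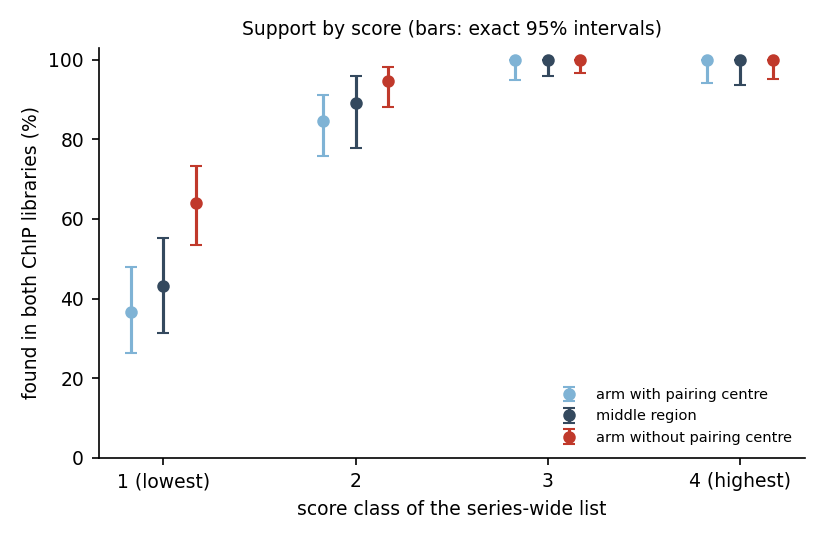
Points give the percentage of series-wide peaks found in both ChIP libraries in each of 4 score classes, for the 3 regions of chromosomes II to V, with exact 95% intervals. In the lowest class the arms without the pairing centre stand at 63.9%, the middle regions at 43.1% and the arms with the pairing centre at 36.6%, and all regions reach 100% in the upper 2 classes.

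In the libraries' own lists the order held in replicate 1 and was the opposite in replicate 2. In replicate 1, 337 of 389 arm peaks (86.6%, 82.8 to 89.9) overlapped a peak of replicate 2, as did 85.5% of all its nuclear peaks and 83.2% (78.2 to 87.4) of those in the middle regions. In replicate 2, 293 of 352 arm peaks (83.2%, 78.9 to 87.0) overlapped a peak of replicate 1, against 87.0% of all its nuclear peaks and 87.2% (82.3 to 91.2) in the middle regions. In Fisher's exact test neither reached the threshold (odds ratios 1.31, 0.834 to 2.06, and 0.727, 0.436 to 1.19; adjusted p = 0.301 for both).

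The unshared arm peaks of each library were mostly weak. The 52 of replicate 1 had scores from 50.25 to 408.91 with a median of 74.3, where its shared arm peaks had a median of 1155. The 59 of replicate 2 had a median of 171 and reached 3100, against 2351 for the shared ones. Of these unshared peaks, 9 of the 52 of replicate 1 and 12 of the 59 of replicate 2 overlapped a series-wide peak. In the middle regions 12 of 47 and 14 of 30 did, and in the pairing-centre arms 8 of 60 and 22 of 43. Low scores of unshared peaks were not particular to these arms. Their medians were 79.0 and 134 in the middle regions, and 71.6 and 175 in the pairing-centre arms.

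Scores of arm peaks that pair 1 to 1 were compared between the libraries. Over 255 such pairs, of which 27 stood at 3100 or more in replicate 1 and 93 in replicate 2, the scores had a Spearman's rho of 0.916 and a Pearson's r of 0.884, as a description across peaks of the same 2 libraries. Over the 180 pairs of the middle regions, where 104 peaks of replicate 2 stood at 3100 or more, rho was 0.865 and r was 0.888. Replicate 2 drew the wider peak in all 255 arm pairs, by a median factor of 2.35 (quartiles 2.04 and 2.91). It did so too in all 180 pairs of the middle regions (median factor 2.21) and in 196 of 197 of the pairing-centre arms (2.52). Another 38 of the 352 arm peaks of replicate 2 (10.8%) each covered several peaks of replicate 1, at most 4. The shares were 10.6% in the middle regions and 10.4% in the pairing-centre arms.

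The 3 members with the highest scores that were missing from a library were all found in replicate 2 and not in replicate 1. They lay at V 17392171 to 17392889 (score 29.17), III 3897111 to 3897742 (24.56) and V 17384872 to 17385255 (21.67), and their scores in replicate 2 were 137.69, 327.95 and 1464.32. Both peaks on V belong to the longest run of peaks.

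Neighbouring arm peaks lay closer together than those of the middle regions, in keeping with their greater number on equal length. The median distance between the centres of neighbouring peaks was 25.0 kb (quartiles 2.13 and 81.2) in the arms and 40.0 kb (quartiles 3.57 and 115) in the middle regions, and the arm median was the shorter on all 4 chromosomes in all 3 lists (2 of 16 sign patterns in the exact permutation, the fewest possible). Neighbours within 10 kb were not detectably more frequent. The next peak lay within 10 kb for 142 of 373 members (38.1%, 33.1 to 43.2), for 37.4% of all nuclear peaks and for 34.2% (28.6 to 40.2) of those in the middle regions (Fisher's exact test, odds ratio 1.18, 0.843 to 1.66, adjusted p = 0.321). It lay within 1 kb for 49 of 373 members, 22 of 272 peaks of the middle regions and 36 of 307 of the pairing-centre arms, which was not tested.

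Runs, in which peaks followed each other with at most 2 kb between their edges, held 153 members (40.8%, 35.8 to 46.0), a share close to the 39.9% of all nuclear peaks. The middle regions had 97 (35.7%, 30.0 to 41.7; Fisher's exact test, odds ratio 1.24, 0.89 to 1.74, adjusted p = 0.301). In replicate 2 the shares were 29.0% and 18.7% (Fisher's exact test, p = 0.00478), and in replicate 1 they were 33.7% and 28.7% (p = 0.178). The 153 members formed 56 runs, of which 36 had 2 peaks, 12 had 3 and 8 had 4 or more; the middle regions had 41 runs, of which the longest had 5 peaks. Members in runs had a median score of 51.42 and single ones 73.75, and 87.6% and 90.5% of them were found in both libraries. The middle regions had the same order, with medians of 50.52 and 87.36 and shares of 78.4% and 85.1%. Arm peaks of replicate 1 had the opposite order, with medians of 1047 in runs and 642 for single ones, and 95.4% and 82.2% found in replicate 2. For arm peaks of replicate 2 the medians were 1363 and 1870, and the shares found in replicate 1 were 83.3% and 83.2%.

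The longest run lay on V at 17384125 to 17394370, and only 1 library had peaks there. It held 11 series-wide peaks in 10246 bp, with widths from 233 to 796 bp and scores from 4.98 to 29.17 (median 10.23). Replicate 2 had 5 peaks there, with scores of 1464.32, 352.17, 53.71, 137.69 and 245.35 in order of position. Replicate 1 had none. The series-wide peaks that start at 17389106, 17390781 and 17391505 met no peak of either library. Only the first of the peaks of replicate 2 scored above that arm's median of 1233. The 12 peaks of the fullest 100 kb bin on V include this run and had a median score of 10.7. A run of 4 peaks on IV, at 3206940 to 3209272 (scores 2.35 to 8.89), likewise had 1 peak in replicate 2 (score 407.33) and none in replicate 1.

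The wide group on V near 17119489 was found in both libraries but with very different scores. Replicate 2 had a single peak at 17119489 to 17132593, at 13105 bp the widest of its 352 arm peaks, with a score of 250.11. Replicate 1 had 2 peaks in the same place, at 17119758 to 17126679 (6922 bp, score 3222.65) and 17127908 to 17132298 (4391 bp, score 1383.23), and the first was the widest of its 389 arm peaks. The series-wide list had 7 short peaks of 155 to 372 bp there. Their scores were 17.96 for the first, at 17119921, and 3.54, 3.74, 1.58, 2.44, 3.8 and 3.83 for the others in order of position. The 7 peaks covered 1484 bp, or 1.03% of the length covered by all arm peaks, where the group took 5.06% in replicate 1 and 2.58% in replicate 2.

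The first 4 of these peaks joined 3 peaks upstream of them in a run of 7 from 17115546 to 17124068. The upstream peaks had series-wide scores of 5.49, 2.14 and 9.45. In replicate 1 the first matched a peak with a score of 554.59 and the others a single peak with 1209.42, and in replicate 2 these scores were 759.01 and 937.05. At these neighbouring places the libraries differed far less than in the wide group itself.

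Another of the longest runs, on V at 15550450 to 15557970, was of another kind. Its 7 series-wide peaks had scores of 80.03, 157.56, 114.81, 51.42, 93.02, 87.48 and 34.95, and each was found in both libraries. Replicate 1 resolved 6 peaks there, with scores from 496.73 to 2934.12, and replicate 2 had 3, each at 3100. A run of 4 peaks on III at 2030762 to 2033159 was similar, with series-wide scores from 89.0 to 156.01, 3 peaks in replicate 1 (956.61 to 3100) and 1 in replicate 2 (3100).

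**Figure D5:**
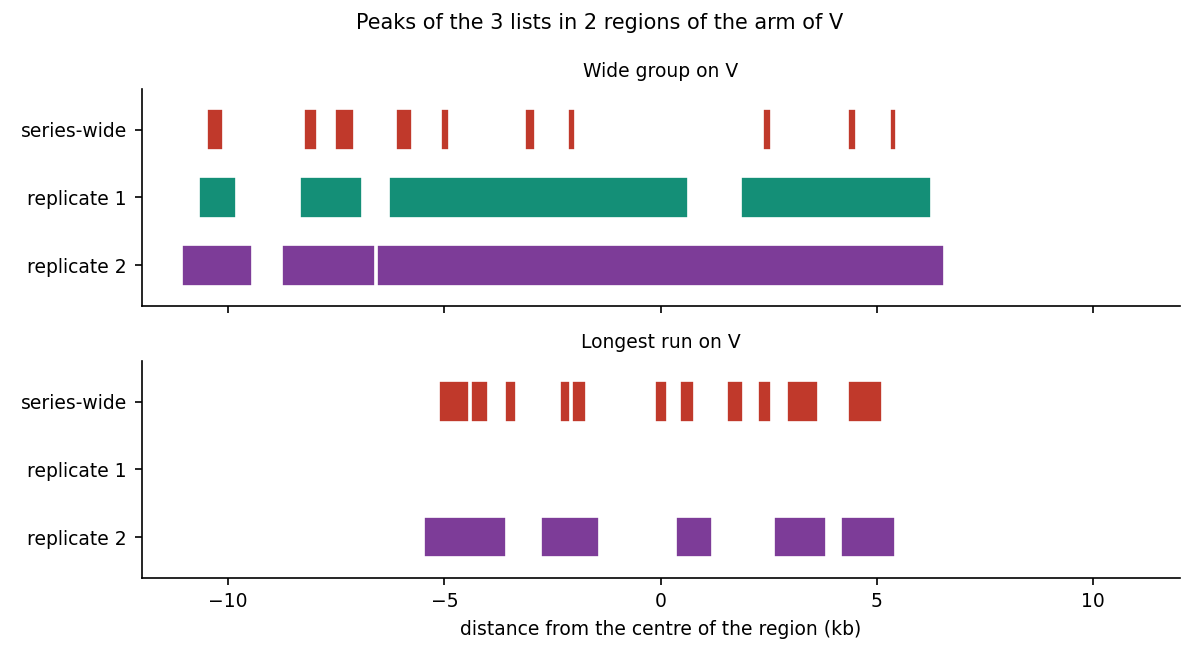
Bars give the extent of each peak in the 3 lists, by distance in kb from the centre of the region, for the wide group and the longest run on the arm of V. The wide group is 1 peak of 13105 bp in replicate 2, 2 peaks in replicate 1 and 7 short peaks in the series-wide list, and the longest run has 11 series-wide peaks, 5 in replicate 2 and none in replicate 1.

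The arms with the pairing centre, on the same 4 chromosomes, differed from the arms described here in the support of series-wide peaks. There 242 of 309 peaks (78.3%, 73.3 to 82.8) were found in both libraries, against 89.3% (Fisher's exact test, odds ratio 2.32, 1.49 to 3.64, adjusted p = 0.000693 over 8 comparisons with the pairing-centre arms). The arm described here had the higher share on all 4 chromosomes, by 3.61 percentage points on IV to 20.9 on III (2 of 16 sign patterns in the exact permutation, the fewest possible). In the libraries' own lists the difference did not pass Fisher's exact test: in replicate 1 the shares found in the other library were 86.6% here and 81.0% in the pairing-centre arms (Fisher's exact test, adjusted p = 0.13), and in replicate 2 they were 83.2% and 84.0%, the other direction (Fisher's exact test, adjusted p = 0.828). Peak density was compared by chromosome: the arm described here held more peaks on III (88 against 61, exact binomial test, adjusted p = 0.0438 over 4 chromosomes) and V (143 against 71, adjusted p = 3.87e-06) and fewer on IV (79 against 117, adjusted p = 0.0161), with 65 against 60 on II (adjusted p = 0.721). On IV neither replicate's own list passed this test (91 against 105 and 84 against 97 peaks, exact binomial test, adjusted p = 0.471 and 0.497). Over the 4 chromosomes together the ratio was 1.21 (1.04 to 1.42, exact binomial test, adjusted p = 0.0515 over the 8 comparisons). In the own lists of replicates 1 and 2 it was 1.23 and 1.31 (exact binomial test, unadjusted p = 0.00665 and 0.000844). In both of those lists the arm described here held more peaks on III and V and fewer on II and IV. The share at or above the median width was 43.4% in the pairing-centre arms and 41.9% in the others (Fisher's exact test, odds ratio 0.941, 0.686 to 1.29, adjusted p = 0.798).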

How the data were processed

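Peak lists of 2 RPC-1 ChIP libraries and of the whole series were used; groups and replicate numbers came from sample titles. The submitters' processing notes name BWA and build ce10, without a version. Per the file headers and source columns, coordinates are on WormBase WS220 and peaks came from MACS (replicates) and MACS v2 (series-wide). The score of each peak is the authors' deposited value; its scale, the caller's threshold, the use of input and any pooling are not stated in the material at hand. In the replicate lists scores pile up at 3100, so these peaks cannot be ranked.

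The 3 stretches of each chromosome were computed from the borders in the member rule, and 3 mitochondrial series-wide peaks were left out. Counts over equal lengths were compared with an exact binomial test and shares with Fisher's exact test, both two-sided with a threshold of 0.05. Benjamini-Hochberg adjustment covered 8 comparisons with each of the middle regions and the pairing-centre arms, or 4 chromosomes. Intervals are exact (Clopper-Pearson; conditional for odds ratios) 95% intervals. Tests and intervals treat peaks as independent, which neighbouring peaks are not, and cover counting error only; p-values say nothing of variation between cultures. A median over a chromosome's arm minus that of its middle region was tested by exact sign flips over 4 chromosomes. Peaks overlapping by at least 1 bp were taken as the same place. The tests were first tried on simulated counts of independent peaks, so that trial does not cover the clustering of the real ones. Python 3.11.15 with scipy 1.17.1 was used.

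Members, lists and tests were chosen with earlier results of these data known. Peaks named by rule were, per arm, the 3 with the highest series-wide score, and over all arms the 5 widest, the 3 longest runs, the 3 longest gaps, the 3 highest-scoring without support in a library, and the wide group on V; other named runs and bins were chosen after their values were seen. No genome or annotation of WS220 was used here, so no sequence, gene or motif is given for a peak, and the planned count of genes at members was not made.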

Additional observations from a re-analysis of the deposited data

How the results depend on the processing

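Under other settings of the peak list, score limit, overlap, run gap or chromosomes, 37 of 42 values kept their direction and their side of an unadjusted p of 0.05 (the results' own unadjusted p included), as did 7 of 10 from settings chosen after seeing the data. The density ratio, 1.38, was 1.39 in the own list of replicate 1 and 1.5 in that of replicate 2. It was 0.851 (40 against 47 peaks, exact binomial p = 0.52) among peaks not found in both libraries, a setting chosen after seeing the data. The difference at or above the median score, -4.24 percentage points, was -5.89 in the list of replicate 1 and -16.82 in that of replicate 2. Among peaks found in both libraries it was -9.52 (Fisher's exact p = 0.0286), a choice that removed only peaks below the median and so repeats the difference in support. That in width, -11.44 points, was -7.53 in the list of replicate 1, -11.00 in that of replicate 2 and -8.99 without chromosome III. That in support, 6.61 points, was 1.20 (61.9% against 60.7%, Fisher's exact p = 0.806) with centres within 200 bp and 3.13 without chromosome II. That in runs, 5.14 points, was 5.00 in the list of replicate 1 and 10.25 in that of replicate 2. That in spacing, 3.88 points, was 3.33 and 4.16. These values are those of 1 library's own list, not of a series-wide list called again without the other library. Causes were not tested. No paired analysis was possible because the results come from the peak lists of 1 group, the ChIP libraries, with no values of a second group to pair by replicate number. Without read depths, how far sequencing limited the weak peaks cannot be said.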

Other observations

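Some arm peaks of a replicate list met few or no series-wide peaks. Those named here all scored below the arm median of their list, 786 in replicate 1 and 1658 in replicate 2. In replicate 1 the highest-scoring arm peak with no partner in replicate 2 lay at V 17308531 to 17311690 (3160 bp, score 408.91), the fourth widest of its arm peaks, between the wide group and the longest run. Those at IV 1831010 to 1831698 (score 255.76) and V 20605584 to 20606311 (score 206.16) were also without a series-wide peak. In replicate 2 the peak at III 3361858 to 3362961 (1104 bp, score 920.69) had no partner in either other list, and that at IV 4416164 to 4422355 was its second widest arm peak (6192 bp, score 167.61) and met 1 series-wide peak.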
